A study of Mus musculus with 6 samples.

Results

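The genes described here encode the proteins of the mitochondrial ribosome, taken as every gene whose symbol is Mrpl or Mrps followed by a number, with or without a closing a, b or c. The rule found 78 of the 17030 genes measured, 49 named for the large subunit and 29 for the small subunit. The RNA came from SCC7, a line of mouse squamous carcinoma cells, in 2 groups. The irradiated group had received radiotherapy at 9 Gy (n = 3), and the control group carries the treatment label none (n = 3). The treatment protocol text, with its dose, stands on all 6 samples, so the groups rest on the treatment label of each sample. Both groups are the same line, with no stated genetic change, grown in high-glucose medium with fetal bovine serum. Every sample is labelled day 0, which leaves the time from irradiation to harvest unstated. The labels do not say whether the 3 samples of a group were separate cultures, so each p-value speaks only of the spread among these 6 samples, and that spread may be technical.

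The mitochondrial ribosome sits in the mitochondrial matrix and translates the few messenger RNAs made from mitochondrial DNA, all of which encode subunits of the oxidative phosphorylation complexes. Its ribosomal RNAs come from mitochondrial DNA, but its proteins are encoded in the nucleus, made in the cytosol and imported. The small subunit binds the messenger RNA and holds the decoding centre, and the large subunit holds the peptidyl transferase centre, where peptide bonds form. Some of the proteins descend from those of the bacterial ribosome, and others were added in mitochondria.

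The level of each gene is given as FPKM, fragments scaled by transcript length and by the total of the library, so levels can be set side by side between genes. The number of reads is unknown, and the FPKM of a library summed to 652691 to 663489 in irradiated libraries and 693961 to 982553 in controls. Control 3 stood apart from controls 1 and 2, so the results that rest on it are given with and without it or against it alone. The genes tested had a median SD of 0.08 among irradiated libraries and of 0.30 among controls, in units of log2(FPKM + 1). Both p53 targets examined as a check of irradiation were higher in irradiated libraries, with a log2 fold change of 0.90 for Cdkn1a and 1.74 for Mdm2 (limma adjusted p = 0.0145 and 0.000838). Of 10 squamous and epithelial markers, 4 passed the filter on low values, and the list summed to 503 to 515 FPKM in irradiated libraries and 712 to 1914 FPKM in controls. Krt8 and Krt18, keratins of simple epithelia, made up most of it, while Krt5, Krt14, Cdh1 and Epcam, which mark squamous or cohesive epithelium, stayed under 0.5 FPKM in every library. Of the 4 tested, limma called Krt18 lower and 0 higher, where 2.77% of all genes tested were called lower. Markers of leukocytes, fibroblasts and endothelium summed to 114 to 133 FPKM in irradiated libraries and 77.4 to 105 FPKM in controls, and 6 of 12 passed the filter. Of these 6, limma called Col1a1, Dcn and Lyz2 higher and 0 lower, where 9.24% of all genes tested were called higher. At an unadjusted p below 0.05 in limma, 1 of the 6 was lower, and their log2 fold changes ran from -0.37 to 1.54. Ptprc and Csf1r, which define leukocytes and macrophages, were at or under 0.05 FPKM. The part of these markers in the results below was not tested.

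All 78 mitoribosomal transcripts were detected in every library, from 5.75 FPKM, for Mrpl19 in an irradiated library, to 921 FPKM, for Mrpl52 in control 2. Summed over the 78 genes, the level was 4853, 4998 and 5095 FPKM in the irradiated libraries, against 7935, 9366 and 4829 FPKM in controls 1 to 3. The irradiated libraries thus lay below controls 1 and 2 and at the level of control 3. The mean was 4982 ± 122 FPKM in irradiated cells and 7377 ± 2319 FPKM in control cells (SD, n = 3 each). These genes held 0.744%, 0.753% and 0.773% of the FPKM sum in the irradiated libraries, against 0.903%, 0.953% and 0.696% in controls 1 to 3. In bulk RNA, fewer cells with a given level and less RNA per cell cannot be told apart.

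The sums of the large and the small subunit ran in parallel over the libraries. The 49 large-subunit genes summed to 3220, 3344 and 3409 FPKM in the irradiated libraries, against 5266, 6270 and 3278 FPKM in controls 1 to 3. The 29 small-subunit genes summed to 1633, 1654 and 1686 FPKM in the irradiated libraries, against 2669, 3097 and 1551 FPKM in controls 1 to 3. The ratio of the sums stayed close to the same value in all 6 libraries, at 1.97, 2.02 and 2.02 in the irradiated libraries and 1.97, 2.02 and 2.11 in controls 1 to 3. It averaged 2.01 ± 0.028 in irradiated cells and 2.04 ± 0.071 in control cells (SD, n = 3 each), a difference smaller than the spread of the controls. With 3 samples against 3, an exact permutation test of such a sum or ratio cannot give a two-sided p below 0.1.

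**Figure D1:**
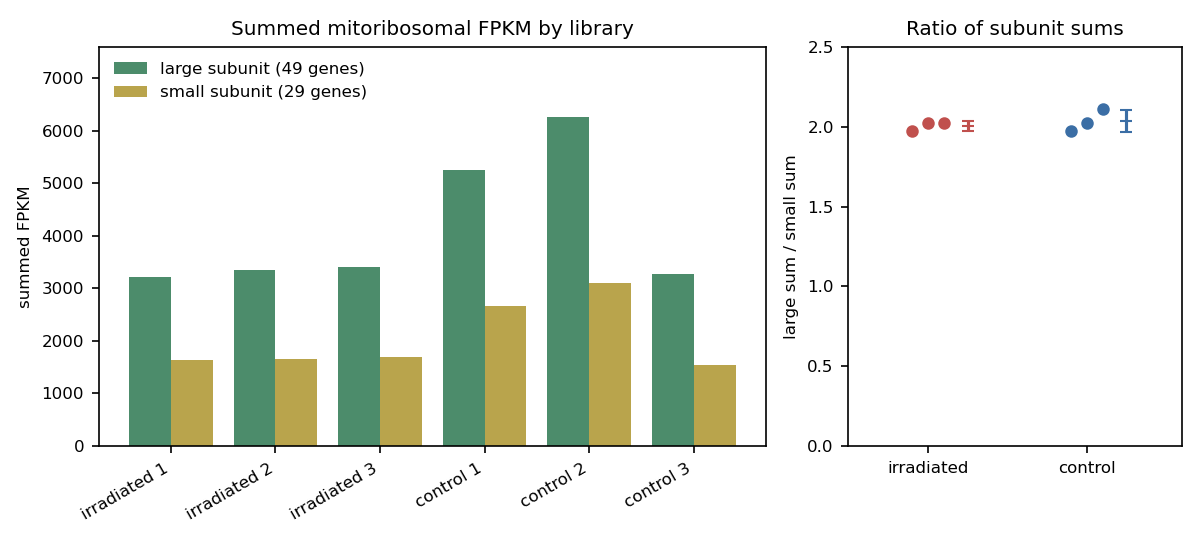
Left, bars give the FPKM summed over the 49 large-subunit and the 29 small-subunit genes in each library. Right, the ratio of the 2 sums, with a point per library and bars for the mean ± SD of 3 libraries: it lies between 1.97 and 2.11 throughout, while the large-subunit sum runs from 3220 to 6270 FPKM.

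Between the groups, 5 of the 78 transcripts fell and 0 rose in limma at an adjusted p below 0.05 over the 11103 genes tested. The share of all genes tested that was called lower was 2.77%, and the share called higher was 9.24%. At an unadjusted p below 0.05 in limma, 21 members were lower and 3 were higher, beside 1231 lower and 3020 higher of the 11103 genes tested. Of the 78, 68 had a log2 fold change below 0, against 37.2% of all genes tested. The median log2 fold change was -0.45 over the 78 genes, -0.37 over the large subunit and -0.45 over the small subunit, beside 0.17 over all genes tested. The 3 irradiated values lay below all 3 controls for 21 members, where 13.7% of all genes did so, and above them for 4, where 31.8% of all genes did so.

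Without control 3, the same test called 59 members lower and 3 higher, beside 23.3% and 45.8% of the 11053 genes tested there. The 59 were 36 of the large and 23 of the small subunit, and the median log2 fold change was -0.67. Without control 1 or without any 1 irradiated library, limma called 0 members, with 10 to 13 lower and 1 to 3 higher at an unadjusted p below 0.05. Those fits called few genes of any kind, 10 to 16 lower and 46 to 164 higher of the 10854 to 11060 tested. Without control 2 limma called Mrpl33 alone among the members, beside 105 lower and 443 higher of the 11055 genes tested there.

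**Figure D2:**
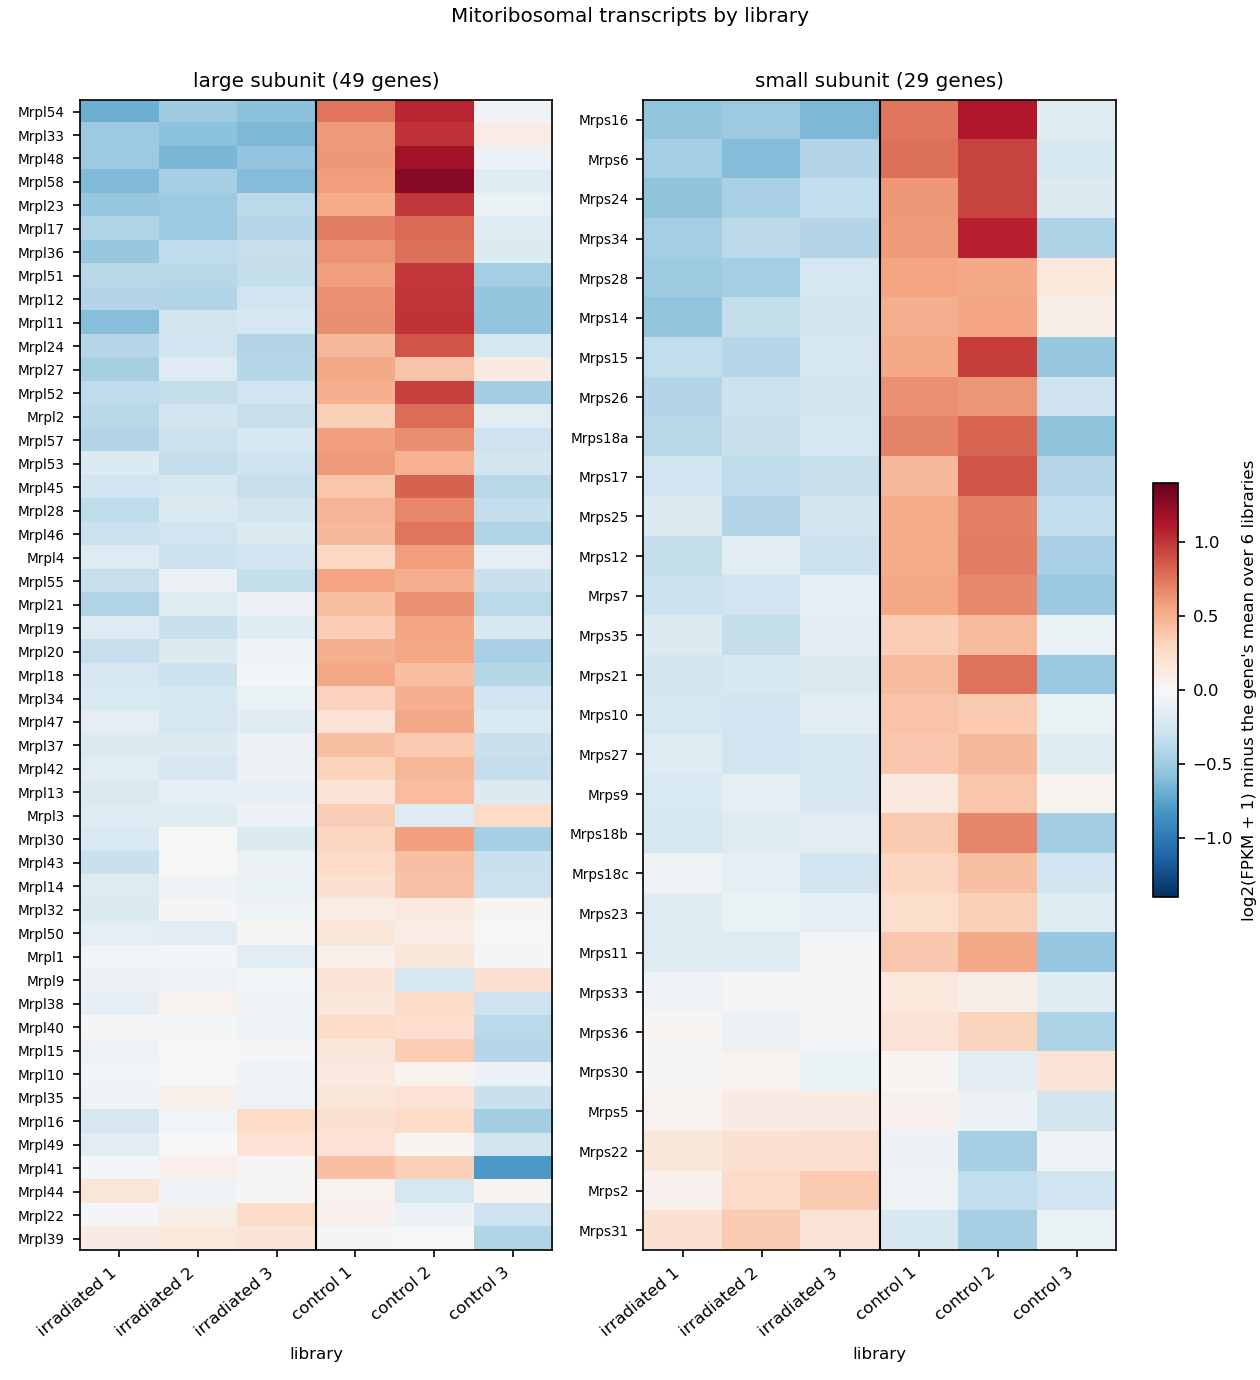
Each row is a mitoribosomal gene and each column a library. Colour gives log2(FPKM + 1) minus the gene's mean over the 6 libraries, and rows are ordered by log2 fold change: most rows are blue in the irradiated libraries and in control 3 and red in controls 1 and 2, and the rows of Mrps22, Mrps2 and Mrps31 at the foot run the other way.

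The 5 transcripts that fell were Mrpl27, Mrpl33 and Mrpl54 of the large subunit and Mrps14 and Mrps28 of the small subunit. Mrpl33 (gene ID 66845, chromosome 5, 31613951 to 31622644, plus strand, GRCm38.p6), a small protein kept from the bacterial large subunit, had 172, 164 and 158 FPKM in the irradiated libraries. Its level was 372, 493 and 263 FPKM in controls 1 to 3. The groups did not overlap, and the log2 fold change was -1.14 (SE 0.24, limma adjusted p = 0.0327). Mrpl54 (gene ID 66047, chromosome 10, 81264722 to 81266926, minus strand), a large-subunit protein without a bacterial counterpart, had 87.2, 99.1 and 94.6 FPKM in the irradiated libraries, against 237, 295 and 136 FPKM in controls 1 to 3. Again all 3 irradiated values were the lower ones, and the transcript was lower by a log2 fold change of -1.17, with an SE of 0.28 and an adjusted p of 0.0454. Mrpl27 (gene ID 94064, chromosome 11, 94653770 to 94661932, plus strand), whose bacterial homologue reaches into the peptidyl transferase centre, had 26.0, 32.0 and 27.4 FPKM in the irradiated libraries, against 52.8, 48.2 and 39.4 FPKM in controls 1 to 3. Its log2 fold change was -0.69 (SE 0.16, adjusted p = 0.0391), the smallest of the 5 falls.

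Mrps28 (gene ID 66230, chromosome 3, 8802146 to 8923857, minus strand), the counterpart of bacterial ribosomal protein S1, had 18.6, 18.9 and 22.4 FPKM in the irradiated libraries, against 39.7, 39.1 and 29.6 FPKM in controls 1 to 3. The fall was -0.82 on the log2 scale (SE 0.16, adjusted p = 0.0291). Mrps14 (gene ID 64659, chromosome 1, 160195215 to 160201186, plus strand), a protein of the head of the small subunit, had 11.6, 13.7 and 14.5 FPKM in the irradiated libraries, against 25.3, 26.1 and 18.7 FPKM in controls 1 to 3. Its log2 fold change was -0.76 (SE 0.17, adjusted p = 0.0391). For all 5 genes control 3 was the lowest control, and every irradiated value lay below it. The genes were picked by a fit to the same values, so this adds no support to the calls. Against control 3 alone the mean of the irradiated libraries differed by -0.67 for Mrpl33, -0.53 for Mrpl54, -0.46 for Mrpl27, -0.55 for Mrps28 and -0.47 for Mrps14 on the log2(FPKM + 1) scale. These are smaller in size than the differences against all 3 controls.

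The calls of the 5 genes sat close to the threshold. Over 15 alternative fits the adjusted p ran from 8.52e-05 to 0.192 for Mrpl33, which passed in 10 of them, and from 5.19e-05 to 0.205 for Mrpl54, which passed in 6. It ran from 0.000455 to 0.205 for Mrpl27, which passed in 6, from 0.000192 to 0.191 for Mrps28, which passed in 7, and from 0.000282 to 0.203 for Mrps14, which passed in 7. Exons of Mrpl27 overlap the opposite-strand gene Eme1, and exons of Mrpl33 overlap the same-strand gene Gm43809. Whether the counting used the strand is not given in the sources used here, so reads of the part shared with Eme1 cannot be told apart. The strand would not separate reads of the part shared with Gm43809.

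**Figure D3:**
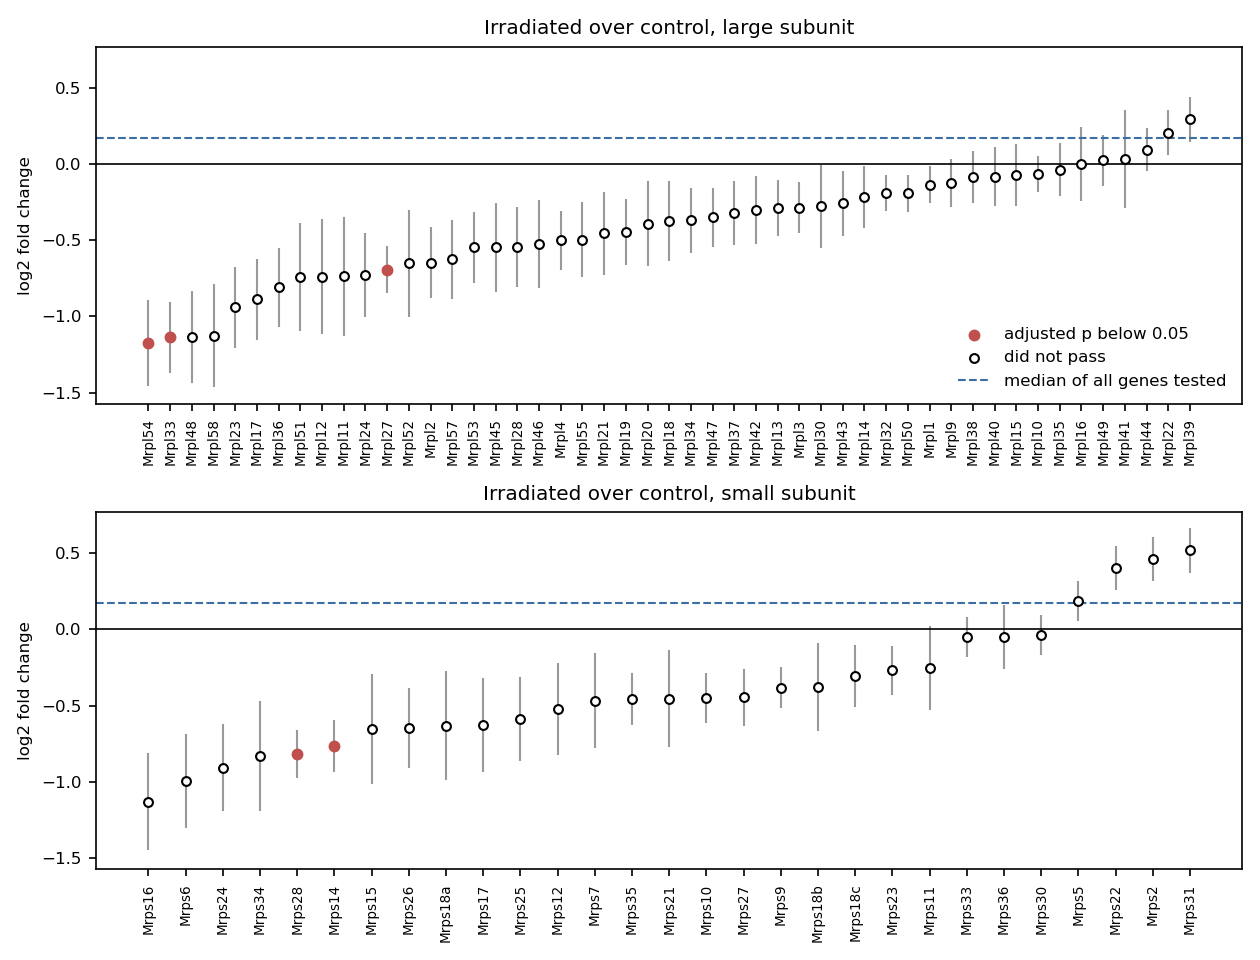
Points give the log2 fold change of each gene, irradiated over control, on log2(FPKM + 1), with bars for 1 SE from limma (3 samples a group), large subunit above and small subunit below. Filled points passed an adjusted p of 0.05, and the dashed line at 0.17 is the median of all genes tested: the range runs from -1.17 for Mrpl54 to 0.52 for Mrps31.

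Most members ran in parallel over the libraries, and their promoters were searched for the letters of NRF1, GABPA and YY1, factors known to act on nuclear genes for mitochondrial proteins, and for 3 general promoter motifs. Windows from 250 bases before to 50 bases after a RefSeq transcription start were on hand for 69 of the 78 members (RefSeq, GRCm38.p6), in 75 windows, since some members have several starts. The windows of 3 genes that fell and of Mrps22, which had a positive log2 fold change, are printed 5′ to 3′ on the strand of the gene, so that their motif content can be compared. They lie at chr5:31613701-31614000 (plus strand) for Mrpl33, chr11:94653541-94653840 (plus strand) for Mrpl27, chr1:160194965-160195264 (plus strand) for Mrps14 and chr9:98601630-98601929 (minus strand) for Mrps22. Capitals mark the matches on either strand.
Mrpl33: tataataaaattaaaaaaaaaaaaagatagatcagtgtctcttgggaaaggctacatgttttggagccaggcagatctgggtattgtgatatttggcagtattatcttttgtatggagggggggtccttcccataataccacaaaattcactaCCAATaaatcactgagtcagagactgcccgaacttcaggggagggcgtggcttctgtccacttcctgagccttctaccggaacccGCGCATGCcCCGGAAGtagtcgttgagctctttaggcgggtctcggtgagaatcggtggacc
Mrpl27: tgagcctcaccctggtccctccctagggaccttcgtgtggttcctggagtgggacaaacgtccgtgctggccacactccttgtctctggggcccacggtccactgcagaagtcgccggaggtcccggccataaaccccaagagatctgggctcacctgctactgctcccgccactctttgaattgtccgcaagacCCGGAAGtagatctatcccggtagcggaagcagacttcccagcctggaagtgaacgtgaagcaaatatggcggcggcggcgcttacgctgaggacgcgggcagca
Mrps14: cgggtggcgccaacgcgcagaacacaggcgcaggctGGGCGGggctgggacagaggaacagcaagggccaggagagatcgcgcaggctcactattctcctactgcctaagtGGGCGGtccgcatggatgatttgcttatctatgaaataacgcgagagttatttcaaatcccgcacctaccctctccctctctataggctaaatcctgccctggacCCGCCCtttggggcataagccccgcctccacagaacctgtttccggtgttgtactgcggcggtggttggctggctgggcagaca
Mrps22: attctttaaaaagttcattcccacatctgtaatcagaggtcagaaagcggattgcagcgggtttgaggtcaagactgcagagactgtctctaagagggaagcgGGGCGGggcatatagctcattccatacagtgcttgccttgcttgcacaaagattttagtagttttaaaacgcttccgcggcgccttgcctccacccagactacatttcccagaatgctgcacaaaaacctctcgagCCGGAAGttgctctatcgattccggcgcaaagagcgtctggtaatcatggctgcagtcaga

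In the window of Mrpl33 the capitals are a CCAAT box that begins 97 bases before the start, the NRF1 letters on the opposite strand 12 bases before it and the ETS letters 3 bases before it. The window of Mrpl27 holds the ETS letters 55 bases before the start. The window of Mrps14 holds no ETS or NRF1 letters and has 3 GC boxes, which begin 214, 139 and 34 bases before the start. Mrps22, with the opposite direction of change, also has the ETS letters close to the start, 11 bases before it, and a GC box 147 bases before it. Of the other genes with the 3 highest log2 fold changes in each subunit, Mrpl22 had the ETS letters too. Mrps31, Mrps2, Mrpl39 and Mrpl44 did not.

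Counted by gene, with a match in at least 1 of its windows, the ETS letters CCGGAAG, bound by GABPA, were found for 26 of the 69 members (37.7%), against 21.8% of genes tested and 9.93% of all genes in the table. The YY1 letters AAGATGGCG were found for 11.6% of members, against 3.89% of genes tested and 1.64% of all genes. The NRF1 letters GCATGCGC, for nuclear respiratory factor 1, were found for 11.6%, against 6.30% and 3.05%. The GC box GGGCGG was found for 49.3% of members, against 70.1% of genes tested and 38.2% of all genes. The CCAAT box was found for 39.1%, against 44.1% and 41.1%, and the E-box CACGTG for 7.25%, against 11.8% and 8.09%. Both strands were searched, and none of the 6 motifs holds another. The median log2 fold change was -0.49 for the 26 members with the ETS letters and -0.32 for the 43 without, and -0.16 for the 8 with the NRF1 letters and -0.45 for the 61 without. For YY1 it was -0.38 with and -0.39 without. These shares and medians are descriptions and were not tested, and a match of letters is not a binding site.

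Among other large-subunit genes, the differences were of like size where the controls spread more. Mrpl48 had 16.5, 15.1 and 16.1 FPKM in the irradiated libraries, against 37.0, 55.6 and 22.6 FPKM in controls 1 to 3. The groups did not overlap, and the log2 fold change of -1.13 had an adjusted p of 0.0542. Mrpl58, a peptidyl-tRNA hydrolase that is built into the large subunit, had 40.1, 44.8 and 40.6 FPKM in the irradiated libraries, against 93.7, 152 and 55.3 FPKM in controls 1 to 3. Its log2 fold change was -1.13, with an SE of 0.34 and an adjusted p of 0.0686. Mrpl12, the stalk protein that meets the translation factors and is also reported to bind the mitochondrial RNA polymerase, had 135, 133 and 147 FPKM in the irradiated libraries, against 279, 360 and 123 FPKM in controls 1 to 3. Here control 3 lay below all irradiated values, and the log2 fold change of -0.74 did not pass (adjusted p = 0.188). Mrpl3, which lies near the peptidyl transferase centre, showed another pattern, with 27.2, 27.5 and 29.3 FPKM in the irradiated libraries and 39.6, 27.2 and 37.4 FPKM in controls 1 to 3, so that control 2 and not control 3 was the lowest.

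The most abundant large-subunit transcripts were Mrpl52 and Mrpl42. Mrpl52 had 368, 374 and 389 FPKM in the irradiated libraries, against 666, 921 and 338 FPKM in controls 1 to 3, or -0.65 on the log2 scale (adjusted p = 0.208). Mrpl42 had 257, 242 and 269 FPKM in the irradiated libraries, against 353, 392 and 225 FPKM in controls 1 to 3. In both genes the irradiated values lay between control 3 and the other controls. The least abundant were Mrpl19, with 6.39, 5.75 and 6.46 FPKM in the irradiated libraries, against 9.69, 11.3 and 6.18 FPKM in controls 1 to 3, and Mrpl35, with 7.98 to 8.90 FPKM in the irradiated libraries, against 6.59 to 9.83 FPKM in controls. Mean levels of the members over the 6 libraries spanned 66.8-fold from Mrpl19 to Mrpl52. Mrpl37, a mitochondrial addition to the large subunit, differed by -0.32 on the log2 scale (adjusted p = 0.281).

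In the small subunit, Mrps16, a protein kept from bacteria, had 62.0, 64.0 and 58.6 FPKM in the irradiated libraries, against 155, 200 and 81.1 FPKM in controls 1 to 3. The groups did not overlap, and the log2 fold change of -1.13 had an adjusted p of 0.0603. Mrps6 had 83.9, 76.0 and 87.6 FPKM in the irradiated libraries, against 200, 226 and 99.6 FPKM in controls 1 to 3 (log2 fold change -0.997, adjusted p = 0.0714). Mrps24, the counterpart of a bacterial protein at the entry of the messenger RNA channel, had 33.2, 35.8 and 38.7 FPKM in the irradiated libraries, against 75.9, 96.1 and 43.3 FPKM in controls 1 to 3 (log2 fold change -0.91, adjusted p = 0.0741). In these 3 genes, picked as the largest falls of the subunit, every irradiated value lay below control 3 as well. Exons of Mrps6 overlap those of Slc5a3 on the same strand and exons of Mrps24 those of Urgcp, and over all members 33 of 78 overlap another annotated gene, 28 of them on the opposite strand. RefSeq lists pseudogenes named after Mrpl23, Mrpl27, Mrpl48 and Mrps36, whose reads could be assigned to either copy.

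Mrps12, which carries part of the decoding centre, had 63.9, 73.3 and 65.6 FPKM in the irradiated libraries, against 117, 134 and 58.8 FPKM in controls 1 to 3. Its log2 fold change was -0.52 and did not pass (adjusted p = 0.235). Mrps27, a mitochondrial pentatricopeptide repeat protein, differed by -0.45 on the log2 scale (adjusted p = 0.131). Mrps21, the most abundant small-subunit transcript, had 317 to 329 FPKM in the irradiated libraries and 264 to 642 FPKM in controls, and Mrps25, the least abundant, had 8.48 to 9.95 FPKM in the irradiated libraries and 8.98 to 19.6 FPKM in controls. In each of these genes except Mrps27, control 3 lay within or below the irradiated values.

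The symbols Mrps18a, Mrps18b and Mrps18c belong to 3 proteins related to the same bacterial protein, of which Mrps18a lies in the large subunit in structures of the mammalian mitoribosome. Mrps18a had 54.5, 57.6 and 60.1 FPKM in the irradiated libraries, against 116, 127 and 48.2 FPKM in controls 1 to 3. The log2 fold change was -0.63 for Mrps18a, -0.38 for Mrps18b and -0.31 for Mrps18c, and none of the 3 passed in limma at an adjusted p below 0.05 (adjusted p = 0.223, 0.352 and 0.287). Mrps30, which also lies in the large subunit in those structures, had 30.6, 32.0 and 29.01 FPKM in the irradiated libraries, against 31.5, 27.7 and 35.3 FPKM in controls 1 to 3. Its log2 fold change was -0.04, and control 3 was the highest control. Mrps36, despite its name, is known as a subunit of the 2-oxoglutarate dehydrogenase complex. With Mrps18a and Mrps30 counted in the large subunit and Mrps36 left out, an assignment chosen after the values were seen, the median log2 fold change was -0.37 over 51 large-subunit genes and -0.46 over 26 small-subunit genes.

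By descent, the 30 large-subunit genes with a bacterial homologue had a median log2 fold change of -0.38 and the 19 mitochondrial additions one of -0.32. Among genes named for the small subunit, the median was -0.49 over 18 with a bacterial homologue and -0.27 over 11 additions. These classes follow the names, so the 11 hold Mrps30 (-0.04) and Mrps36 (-0.05), and the 18 hold Mrps18a (-0.63). Leaving these genes out brings the medians of the classes closer together. Of the homologues, limma called Mrpl27 and Mrpl33 in the large and Mrps14 and Mrps28 in the small subunit. Of the additions it called Mrpl54 in the large subunit and 0 in the small, where 2 were lower and 2 higher at an unadjusted p below 0.05. The difference between the classes was not tested.

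A few members ran the other way. Mrps31 had 19.5, 21.7 and 19.1 FPKM in the irradiated libraries, against 14.1, 11.7 and 15.6 FPKM in controls 1 to 3, a difference of 0.52 on the log2 scale (SE 0.15, adjusted p = 0.0595). Mrps2, kept from the bacterial small subunit, had 21.9, 25.5 and 27.3 FPKM in the irradiated libraries, against 20.0, 16.3 and 17.1 FPKM in controls 1 to 3, a difference of 0.46 on that scale (SE 0.14, adjusted p = 0.0730). Mrps22, a mitochondrial addition to the small subunit, had 37.1, 38.5 and 38.8 FPKM in the irradiated libraries, against 31.2, 23.7 and 31.6 FPKM in controls 1 to 3, a difference of 0.40 (SE 0.15, adjusted p = 0.0976). In these 3 genes and in Mrpl39 the groups did not overlap and control 3 lay on the side of the other controls, yet none passed in limma. Without control 3 the test called Mrps31 (adjusted p = 0.00218), Mrps22 (0.0102) and Mrps2 (0.0183) higher.

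In the large subunit the highest log2 fold change was that of Mrpl39, with 43.3, 44.4 and 45.6 FPKM in the irradiated libraries, against 39.1, 40.2 and 29.7 FPKM in controls 1 to 3 (log2 fold change 0.30, adjusted p = 0.182). Mrpl22 (0.21) and Mrpl44 (0.10), which carries a fold of the ribonuclease III family, overlapped the controls.

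Set against each control in turn, the members split by which library was used. The median difference of the irradiated mean from control 1 was -0.59 on the log2(FPKM + 1) scale, -0.57 for the large and -0.63 for the small subunit. Against control 2 it was -0.72, with -0.71 for the large and -0.88 for the small subunit. Against control 3 it was 0.08, with 0.06 for the large and 0.09 for the small subunit. The same medians over all genes tested were 0.18, 0.29 and 0.07 against controls 1, 2 and 3.

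All 3 irradiated libraries lay below control 1 for 68 members (33.7% of all genes tested), below control 2 for 66 (32.5%) and below control 3 for 24 (32.3%). They lay above control 1 for 4 (55.6%), above control 2 for 9 (59.3%) and above control 3 for 38 (48%). The subunits gave like counts, with 44 of 49 large-subunit and 24 of 29 small-subunit genes below control 1 and 14 and 10 below control 3. Against control 3, both counts were therefore near the share of all genes.

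Control 3 was the lowest of the 3 controls for 71 of the 78 members, where 35.9% of all genes were lowest in it. The exceptions were Mrpl3, Mrpl9, Mrpl44, Mrps2, Mrps22, Mrps30 and Mrps31, a count of exceptions looked up after the values were seen. The median difference of control 3 from the mean of controls 1 and 2 was -0.70 over the members. That is larger in size than the median of -0.45 between the groups. Control 3 lay nearer the irradiated mean than the mean of controls 1 and 2 for 65 members, where 69.4% of all genes did so. Members had a median SD of 0.08 among the irradiated and of 0.42 among the control libraries on the log2 scale.

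**Figure D4:**
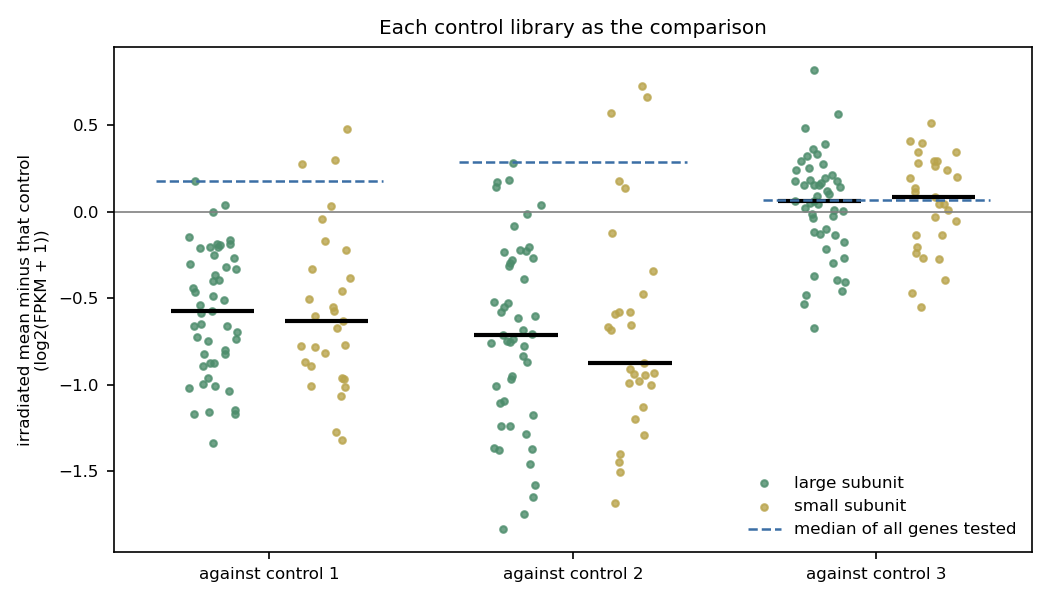
Each point is a gene, placed at the mean of the 3 irradiated libraries minus 1 control library on log2(FPKM + 1), with the large subunit left and the small subunit right in each pair. Black bars are medians of the members and dashed lines medians of all genes tested: the members' medians are -0.57 to -0.88 against controls 1 and 2 and 0.06 to 0.09 against control 3.

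The other genes of mitochondrial translation were set beside the members by list. Of 5 mitoribosomal proteins under other names, 2 fell. Aurkaip1, a small-subunit protein, had 57.2, 58.9 and 53.3 FPKM in the irradiated libraries, against 113, 141 and 81.6 FPKM in controls 1 to 3 (log2 fold change -0.94, adjusted p = 0.0386). Dap3, a GTP-binding protein of the small subunit, had 69.2, 71.3 and 65.4 FPKM in the irradiated libraries, against 105, 110 and 88.8 FPKM in controls 1 to 3 (log2 fold change -0.55, adjusted p = 0.0455). In both genes, named for the smallest p of the list, every irradiated value lay below control 3. The median of the 5 was -0.69, and -0.08 against control 3.

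Of 16 mitochondrial translation factors, limma called 0 in either direction, with 2 lower and 1 higher at an unadjusted p below 0.05, and the median log2 fold change was 0.06. Tsfm, which recycles the elongation factor Tu, had 23.4, 26.2 and 27.3 FPKM in the irradiated libraries, against 50.6, 66.1 and 33.3 FPKM in controls 1 to 3 (adjusted p = 0.0590). Gfm1, the translocating elongation factor, had 39.4, 39.4 and 41.8 FPKM in the irradiated libraries, against 33.3, 24.7 and 28.2 FPKM in controls 1 to 3 (adjusted p = 0.0651). These 2 were named for the smallest p of the list, and neither was past the threshold. Their groups did not overlap, in opposite directions. Over the 16 factors the irradiated values lay below all controls for 3 and above them for 2, where 13.7% and 31.8% of all genes tested did so.

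Of 27 genes for mitoribosome assembly and ribosomal RNA modification, 2 fell and 0 rose, with 5 lower and 1 higher at an unadjusted p below 0.05, and the median was -0.12. Malsu1, which keeps the immature large subunit from joining the small one, had 31.3, 32.8 and 31.8 FPKM in the irradiated libraries, against 59.5, 67.4 and 46.2 FPKM in controls 1 to 3 (log2 fold change -0.82, adjusted p = 0.0300). Mtg2, a GTPase of large-subunit assembly, had 14.4, 14.6 and 14.8 FPKM in the irradiated libraries, against 22.6, 26.0 and 20.6 FPKM in controls 1 to 3 (log2 fold change -0.62, adjusted p = 0.0343). In both genes, named for the smallest p of the list, the irradiated values were also below control 3.

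Among 20 mitochondrial aminoacyl-tRNA synthetase and amidotransferase genes the median was -0.01, 1 rose and 0 fell, with 2 lower and 2 higher at an unadjusted p below 0.05. The 1 that rose, Mars2, which charges methionyl-tRNA, had 4.46, 4.23 and 4.52 FPKM in the irradiated libraries, against 2.44, 1.62 and 2.22 FPKM in controls 1 to 3 (log2 fold change 0.81, adjusted p = 0.0244). Of 16 genes for transcription and copying of mitochondrial DNA, limma called 0, with 0 lower and 2 higher at an unadjusted p below 0.05, and the median was 0.03. The 2 were Polg, the mitochondrial DNA polymerase (log2 fold change 0.41, adjusted p = 0.0784), and Ssbp1, which binds its single-stranded template (0.33, adjusted p = 0.117). Of 8 tested regulators of mitochondrial biogenesis, limma called 0, with 0 lower and 1 higher at an unadjusted p below 0.05. Their median was 0.33, and -0.01 against control 3, with log2 fold changes of 0.45 for Esrra and 0.59 for Yy1 (adjusted p = 0.0786 and 0.142). The 13 proteins encoded in mitochondrial DNA, the products of this ribosome, were searched for by symbol. Under the symbols used, 0 of the 13 were found among the genes measured, so they were not analysed here.

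The nuclear OXPHOS subunits and the cytosolic ribosomal proteins also had negative medians. Of 77 nuclear OXPHOS genes, 4 fell and 0 rose (29 lower and 0 higher at an unadjusted p below 0.05), with a median of -0.52 and of -0.05 against control 3. Ndufb2 of complex I had the smallest p, with 13.7, 13.6 and 16.8 FPKM in the irradiated libraries, against 33.4, 35.8 and 24.3 FPKM in controls 1 to 3 (log2 fold change -1.02, adjusted p = 0.0226), followed by Cox7a2 of complex IV (-0.88, adjusted p = 0.0300). Of 80 cytosolic ribosomal proteins tested, 16 fell and 0 rose (62 lower and 0 higher at an unadjusted p below 0.05), with a median of -0.73 and of -0.27 against control 3. The smallest p were those of Rpl39, at -0.95 on the log2 scale (adjusted p = 0.0139), and of Rps6, at -1.48 (adjusted p = 0.0211). The cytosolic ribosomal proteins held 20.4% to 20.8% of the FPKM sum in irradiated libraries, against 27.9%, 31.9% and 23.2% in controls 1 to 3. The part of this share in the values of the members was not tested.

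**Figure D5:**
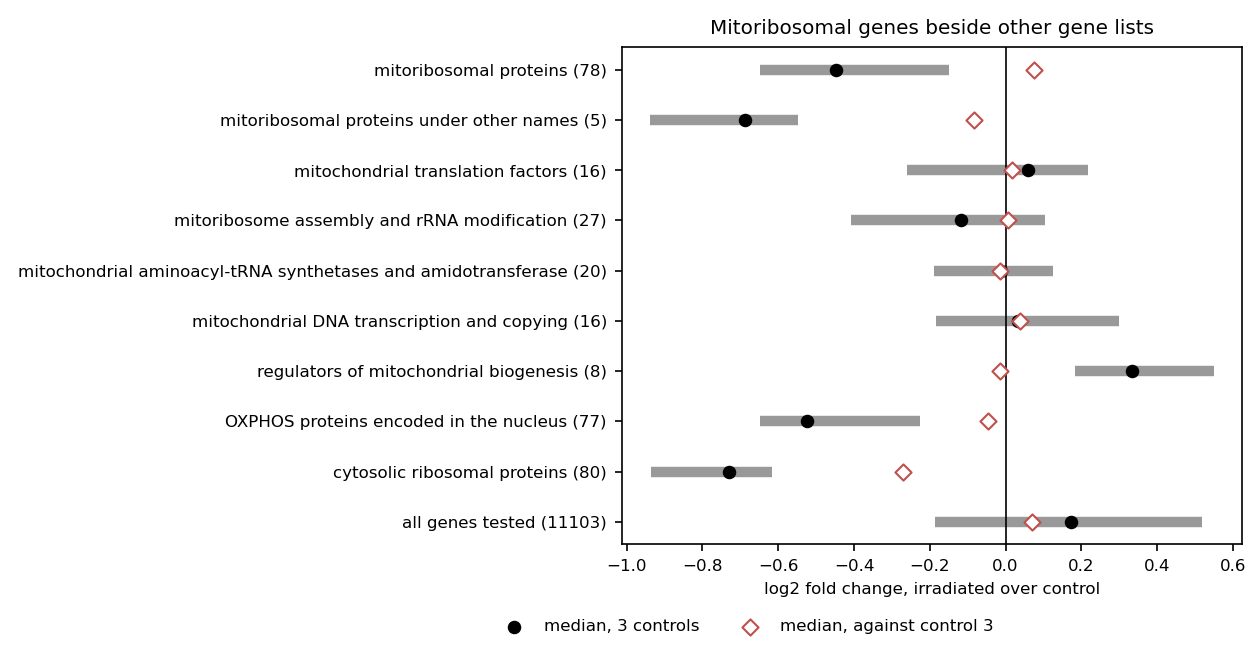
For each gene list, with the number tested, the grey bar is the interquartile range of the log2 fold change over 3 controls, the black point is its median and the open diamond is the median against control 3 alone. The black points of the mitoribosomal (-0.45), OXPHOS (-0.52) and cytosolic ribosomal lists (-0.73) lie left of 0, and their diamonds lie at 0.08, -0.05 and -0.27.

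The members are scattered over 17 chromosomes and are mostly short. The median transcript length was 1327.5 bases for members and 3089 bases for all genes tested, at a GC content of 50.01% and 50.06%. Over all genes tested, the log2 fold change moved with length. With the genes in 5 equal parts by length, the median was -0.26 in the shortest part, 0.04, 0.18 and 0.29 in the next parts and 0.47 in the longest. Members in these parts, 50, 9, 8, 8 and 3 genes from short to long, had medians of -0.39, -0.45, -0.49, -0.37 and -0.63. Against control 3 the medians of all genes ran only from 0.01 to 0.13 from the shortest to the longest part. With length and GC content regressed out of each library, the median of the members was -0.16 beside 0.15 for all genes. In that fit limma called 6 members lower and 3 higher, beside 471 lower and 1368 higher of the 10930 genes tested. The part of transcript length in the difference between the groups was not tested further.

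Of the 78 members, 18 (23.1%) have a protein-coding gene on the other strand that starts within 1000 bases upstream and is read away from them. The share was 11.2% of all genes tested, and the distances were 26 to 935 bases. Pairs whose 5′ ends overlap were not counted, as for Mrpl46 and Mrps11, members on opposite strands with overlapping exons. Among the 17 such neighbours that passed the filter, 6 pairs had 2 negative log2 fold changes, 8 had a negative member beside a positive neighbour, 2 were both positive and 1 had a positive member beside a negative neighbour. The median was -0.32 for the members and 0.12 for their neighbours, beside 0.17 for all genes tested. The neighbours called were Mitd1, beside Mrpl30, and Ppp1r10, beside Mrps18b, both higher. They were 2 of the 17, where 9.24% of all genes tested were called higher. Mrpl54, which fell, lies 26 bases from Apba3, which had 31.6, 33.8 and 30.1 FPKM in the irradiated libraries, against 29.3, 22.2 and 38.7 FPKM in controls 1 to 3. Mrps12 lies 172 bases from Sars2, the mitochondrial seryl-tRNA synthetase, which had 5.71, 5.08 and 5.16 FPKM in the irradiated libraries, against 13.6, 20.4 and 7.05 FPKM in controls 1 to 3 (log2 fold change -1.11, adjusted p = 0.0702). In Sars2, as in Mrps12, control 3 lay nearer the irradiated values than the other controls did.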

How the data were processed

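The RNA-seq values of 3 irradiated and 3 control samples are FPKM per gene, normalised by the authors, per the file headers. HISAT and the build GRCm38.p6 are named in the submitters' processing notes. The counting tool and its use of strand are not given here, and without read numbers the depth is unknown. Abundant genes can shift the FPKM scale of all others.

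A gene was tested if it reached 1 FPKM in 3 samples or more. limma 3.58.1 (R 4.3.3) was fitted to log2(FPKM + 1), with group as the only term and eBayes moderation (trend, robust). P-values were adjusted by Benjamini and Hochberg over all 11103 genes tested, with calls below 0.05. The scale understates changes of low genes. The fit was also run on simulated data, drawn with equal spread in both groups and independently for each gene. That run cannot show how the fit behaves with the wider spread of these controls. Positions and promoters come from RefSeq. Transcript length, GC content, exon overlaps and distances to neighbouring genes come from GENCODE release M21. All are on GRCm38.p6.

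The members, lists and naming rule were chosen with earlier results of these data known. Named are all called members, the 2 most and 2 least abundant and the 3 highest and 3 lowest fold changes of each subunit, 10 set genes (Mrpl3, Mrpl12, Mrpl37, Mrpl58, Mrps12, Mrps18a, Mrps18b, Mrps18c, Mrps27, Mrps30) and the 2 smallest p of each list. Neighbouring genes were named after their values were seen. Alternatives were other scalings, filters and pseudocounts, no trend and robust options, a replicate block, splines for length and GC content, and each library left out.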

Additional observations from a re-analysis of the deposited data

How the results depend on the processing

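The number of members called lower (5) was 2 on a TPM scale and 2 with no filter, and 0 with a replicate block, and ran from 0 to 59 when 1 library was left out. The number called higher (0) was 3 on a TPM scale and 3 after the length and GC correction, and ran from 0 to 3 when 1 library was left out. Among the fits with 1 library left out, the 59 lower came without control 3. Whether the numbers shared by the groups pair the samples was not settled. Across genes, the deviations of same-numbered libraries from their group means correlated at -0.11, 0.02 and -0.16. Those of libraries with different numbers correlated at -0.17 to 0.26, and no irradiated library correlated best with the control of its own number. With 3 libraries a group the deviations of a gene sum to 0, so these correlations are constrained and cannot decide whether the samples were paired. With the block, 18 members were lower and 2 higher at an unadjusted p below 0.05 in limma, and 40 genes were called lower and 260 higher over the whole table.

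The median log2 fold change of the members (-0.45) was -0.10 on a TPM scale, -0.16 after the length and GC correction, -0.72 with control 2 as the only control and 0.0753 with control 3 as the only control, and -0.67 to -0.27 when 1 library was left out. After quantile normalization it was -0.34 and after trimmed-mean scaling -0.67. For the large subunit (-0.37) it was -0.0204 on a TPM scale, -0.16 after the length and GC correction, -0.62 after trimmed-mean scaling, -0.71 against control 2 and 0.0622 against control 3, and -0.67 to -0.26 with 1 library left out. For the small subunit (-0.45) it was -0.10 on a TPM scale, -0.15 after the length and GC correction, -0.70 after trimmed-mean scaling, -0.88 against control 2 and 0.0884 against control 3, and -0.71 to -0.29 with 1 library left out. The median of all genes was 0.17, and 0.50 on a TPM scale, -0.02 after quantile normalization, -0.05 after trimmed-mean scaling and 0.15 after the length and GC correction. The members' median minus that of all genes was -0.62 in the values reported, -0.60 on a TPM scale, -0.63 after trimmed-mean scaling, -0.32 after quantile normalization, -0.30 after the length and GC correction and 0.0054 against control 3 alone. Over all genes, 1026 were called higher and 308 lower, against 1428 and 137 on a TPM scale, 645 and 601 after quantile normalization and 613 and 591 after trimmed-mean scaling. The counts were 1368 higher and 471 lower after the length and GC correction and 1105 higher and 233 lower with no filter. The cause of these shifts was not tested.

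Of the values of single named members under the alternatives, 381 kept direction and side of the threshold, 28 newly passed, 39 no longer passed and 17 changed sign, all of them in members that did not pass. Signs changed on a TPM scale for Mrpl42 (0.0558), Mrpl35 (0.29), Mrps30 (0.31), Mrpl37 (0.027), Mrps18c (0.0468) and Mrpl3 (0.0598), and after the length and GC correction for Mrpl42 (0.0757), Mrps21 (0.0473), Mrpl37 (0.01) and Mrps18c (0.015). After quantile normalization Mrpl42 was at 0.0027 and Mrpl44 at -0.15, and after trimmed-mean scaling Mrpl44 was at -0.13 and Mrpl22 at -0.0342. With 1 library left out, Mrpl35 ran from -0.2024 to 0.0541 and Mrps30 from -0.1231 to 0.046. Sample quality weights were not run, because their estimate did not converge on 6 libraries.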
